A study of Mus musculus with 6 samples.

Results

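Matricellular proteins and small leucine-rich proteoglycans were followed in the mouse uterus over the first 24 h after 1 injection of progesterone. The members were Tgfbi, Sparc and Tnc, the small leucine-rich proteoglycans Lum, Dcn and Bgn, the fibulins Fbln1 and Fbln2, and Fn1. All probe sets whose only annotated gene is 1 of these 9 were taken, which gave 15 probe sets out of 12422 that were not controls, for 9 of 8251 genes named by a probe set of their own. Of the 15, 14 lay above the detection floor of 6.60 (log2) on at least 2 arrays and were analysed, and 12 lay above it on all 6. The remaining 1, a second Tgfbi probe set (161157_r_at), stood at the lower limit of the table, 5.39, on every array and carries no information on the gene.

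The tissue was the whole uterus of ovariectomized wildtype females of the inbred strain 129/SvImJ, aged 10 to 16 weeks, whose own ovarian hormone supply had been removed 14 days earlier. The 0 h mice received no injection, and the others received 0.2 mg progesterone in 0.1 mL sesame oil under the skin and were examined after 6, 12, 15, 18 or 24 h. Each time is represented by 1 RNA pool from 8 horns of 4 mice on 1 Affymetrix array, so there are 6 arrays, no replicate of any time and no spread between mice. No array of mice given oil alone was analysed here, so progesterone, the injection and the vehicle cannot be told apart, and 1 array is the reference for all differences from 0 h.

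Matricellular proteins are secreted into the matrix between cells, where they change how cells attach, spread and respond to growth factors rather than bearing load. Small leucine-rich proteoglycans bind collagen fibrils and control their width and spacing. Progesterone acts through a nuclear receptor present in the epithelium, stroma and muscle of the uterus, and the stroma whose matrix these proteins build is the layer that later turns into decidua around an implanting embryo.

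The tissue's own markers were present. The homeobox genes Hoxa10 and Hoxa11, which mark uterine stroma, lay at 9.47 and 9.93 (log2) at 0 h, the epithelial keratin Krt18 at 10.65, and the smooth muscle genes Acta2 and Myh11 at 12.07 and 11.23. All 5 were above the floor on every array. The median log2 value per array ran from 7.12 to 7.22, and the number of arrays limits the precision of every value. In whole tissue, fewer cells of a type and less RNA per cell cannot be told apart.

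RefSeq promoter windows (build GRCm38.p6, from 250 bases before to 50 after an annotated start) were on hand for 6 of the 9 members, with 8 starts between them. None was on hand for Lum, Dcn and Fn1, so Lum, which also climbed from 6 to 24 h, was not searched. In each window, 3 letter patterns were searched on both strands. They were AGAACA, the hexamer to which progesterone receptors bind in pairs, GGGCGG, the GC box, and TATAAA, the TATA box. The 250 bases before the start are shown for Tgfbi, the member with the lowest values against 0 h, and for Sparc and Bgn, whose values climbed together from 6 to 24 h. Each is written 5′ to 3′ on the gene's own strand, and capitals mark the pattern matches. The windows are chr13:56609336-56609585 (plus strand), chr11:55420081-55420330 (minus strand) and chrX:73483351-73483600 (plus strand).
Tgfbi: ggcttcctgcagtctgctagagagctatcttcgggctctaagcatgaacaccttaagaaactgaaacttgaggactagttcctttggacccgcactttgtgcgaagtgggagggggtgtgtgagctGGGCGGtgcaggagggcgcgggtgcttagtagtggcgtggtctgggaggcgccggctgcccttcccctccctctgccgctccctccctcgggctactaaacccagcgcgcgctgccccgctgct
Sparc: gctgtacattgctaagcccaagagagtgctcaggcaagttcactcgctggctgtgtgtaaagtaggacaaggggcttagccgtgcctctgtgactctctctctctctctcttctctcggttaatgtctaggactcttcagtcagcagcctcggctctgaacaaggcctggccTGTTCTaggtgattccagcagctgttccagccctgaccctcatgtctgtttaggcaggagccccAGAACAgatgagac
Bgn: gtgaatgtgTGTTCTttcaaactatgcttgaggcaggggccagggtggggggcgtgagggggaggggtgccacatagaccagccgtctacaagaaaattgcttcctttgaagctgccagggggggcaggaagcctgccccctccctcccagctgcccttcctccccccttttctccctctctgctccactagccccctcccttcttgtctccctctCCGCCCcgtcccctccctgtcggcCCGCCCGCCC

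Within the whole 300-base windows, the Sparc promoter held 2 matches to AGAACA, starting 78 and 14 bases before the start, and none to the other patterns. The Bgn promoter held 1 match to AGAACA, 241 bases before the start, and 3 to GGGCGG close to the start, of which 2 overlap. The Tgfbi promoter held 2 matches to GGGCGG, 1 of them after the start and so not shown, and none to AGAACA. Of 27025 mouse promoters of the same length, 19.0% held AGAACA, 35.9% held GGGCGG and 14.2% held TATAAA. Among the other members, the windows of both Tnc starts held 1 GGGCGG and 1 TATAAA. These are the same sites in both, because the Tnc windows overlap. The Fbln2 window held 2 GGGCGG, and the Fbln1 windows held 1 AGAACA at 1 start and 2 GGGCGG at the other. A match is a description of letters and not a bound site.

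Tgfbi encodes a secreted protein that links collagens to integrins and takes its name from its induction by TGF-beta. The log2 values of its main probe set (92877_at) were 11.65, 10.17, 9.23, 8.74, 8.76 and 8.69 at 0, 6, 12, 15, 18 and 24 h. On the linear scale this is 3215, 1149 and 602 on the first 3 arrays and between 412 and 434 from 15 h on. The level at 0 h was the highest of the 6, each of the first steps went down, and the last 3 arrays were level with each other. Tgfbi was 2.80-fold, 5.34-fold, 7.50-fold, 7.40-fold and 7.80-fold lower than at 0 h on the 5 progesterone arrays in order of time. Among all analysed probe sets its log2 difference from 0 h was the 17th lowest at 6 h and stood at rank 3, 2, 2 and 3 from the bottom at 12, 15, 18 and 24 h.

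The decrease of Tgfbi after progesterone does not rest on the 0 h array alone, since the 24 h array was lower than the 6 h array by a log2 difference of -1.48. The change from 6 to 12 h was -0.93 and from 12 to 15 h -0.49, whereas the 18 and 24 h arrays differed from the array before them by 0.02 and -0.08. Across all analysed probe sets the differences between these pairs of neighbouring arrays had an SD of 0.27, 0.17, 0.20 and 0.19. The early steps of Tgfbi were therefore larger than this SD, and the late ones were not. That SD is taken over probe sets and not over replicates, so the comparison is a description and not a test.

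Sparc (osteonectin) binds collagen in the endoplasmic reticulum and in the matrix, and is needed for the normal assembly of collagen fibrils. Its log2 values (97160_at) were 9.26, 9.06, 9.54, 9.98, 10.15 and 10.43 at 0, 6, 12, 15, 18 and 24 h. The 6 h array was the lowest, and each later array was higher than the one before it. On the linear scale Sparc went from 615 at 0 h to 1381 at 24 h, which is 2.25-fold, and the 24 h array was 2.58-fold above the 6 h array. The steps after 6 h were 0.47, 0.44, 0.17 and 0.28 on the log2 scale.

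Tnc (tenascin C), a large glycoprotein of remodelling matrix that loosens the hold of cells on fibronectin, lay close to the detection floor. Probe set 162362_f_at had deposited log2 values of 6.99 at 0 h and 6.45, 6.76, 6.93, 6.88 and 6.40 at 6, 12, 15, 18 and 24 h, so 4 of its 6 values were above the floor. Probe set 101993_at gave 6.79 at 0 h and 6.10, 6.35, 6.62, 6.86 and 6.01 after progesterone, with 3 values above the floor. In both, the 6 h and 24 h arrays were the lowest. With values below the floor set to it, the differences from 0 h ran from -0.39 to -0.06 for the first probe set and from -0.19 to 0.07 for the second, and those that end at the floor are limits rather than sizes.

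**Figure D1:**
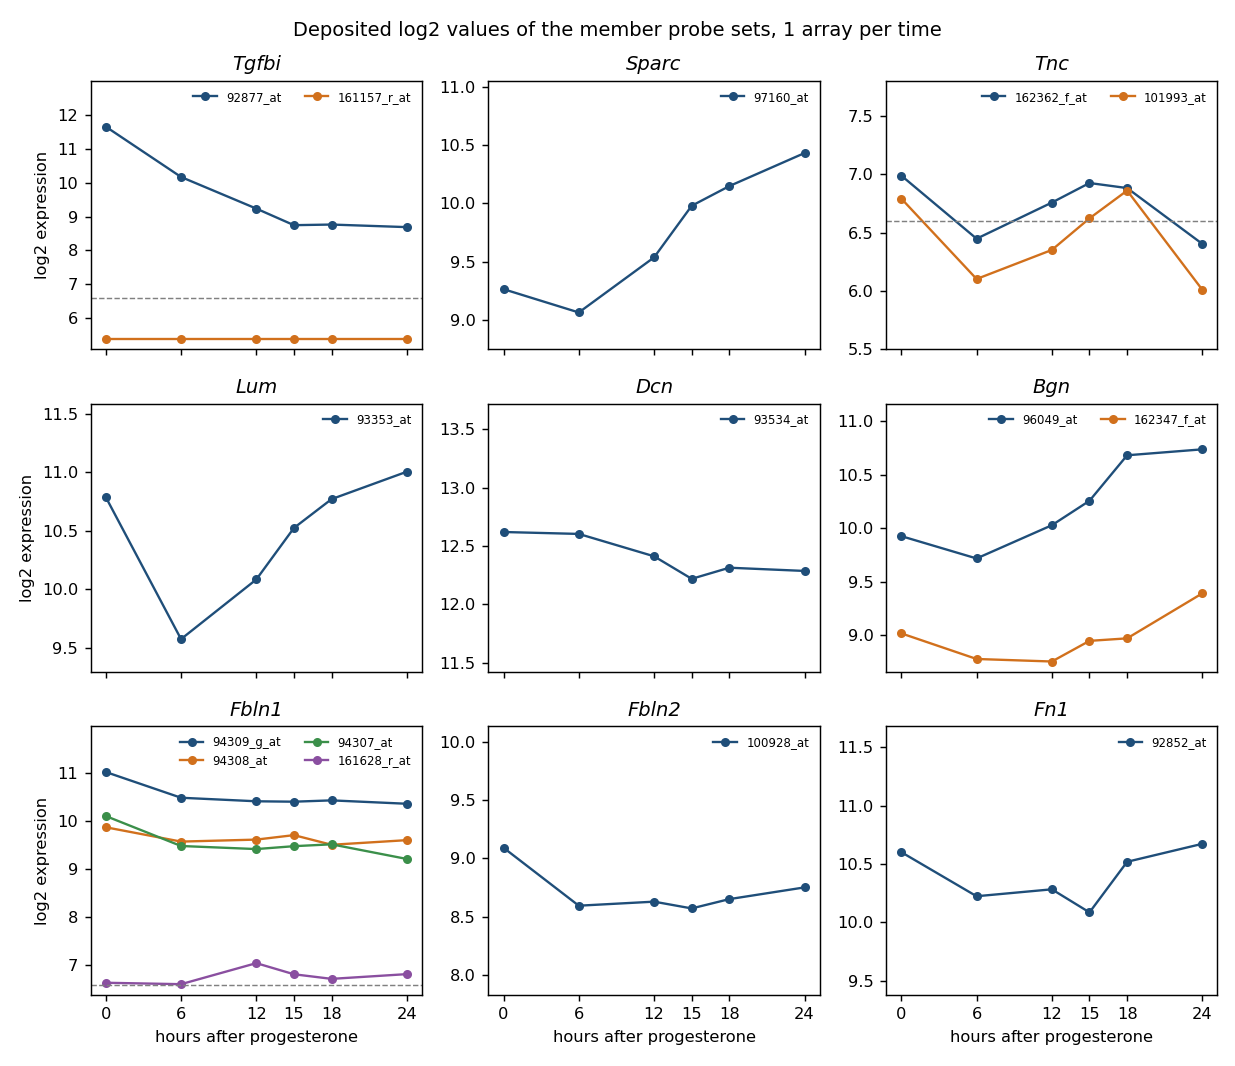
Deposited log2 expression (vertical axis) of the 15 member probe sets against hours after progesterone (horizontal axis), 1 panel per gene, 1 line per probe set and 1 point per array, with 0 h uninjected; the dashed grey line in the Tgfbi, Tnc and Fbln1 panels is the detection floor of 6.60. Tgfbi 92877_at goes down from 11.65 to 8.69, Sparc, Lum and Bgn are lowest at 6 h or 12 h and end at their highest value at 24 h, and the 4 Fbln1 probe sets do not share 1 course. Panels have different vertical ranges, and levels of different probe sets cannot be compared.

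Lum (lumican), a keratan sulfate proteoglycan that regulates the thickness of collagen fibrils, showed a dip and a return. Its log2 values (93353_at) were 10.79, 9.57, 10.08, 10.52, 10.77 and 11.01 at 0, 6, 12, 15, 18 and 24 h. The 6 h array was 2.33-fold below 0 h, which placed Lum at rank 38 from the bottom among 7719 probe sets at that time. By 18 h the value was back at the 0 h level, with a difference of -0.02, and at 24 h it stood 0.22 above it. From 6 to 24 h Lum increased 2.70-fold, from 761 to 2058 on the linear scale, in steps of 0.51, 0.44, 0.25 and 0.23 (log2).

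Bgn (biglycan) carries chondroitin or dermatan sulfate chains and binds collagen and TGF-beta. Its probe set 96049_at gave log2 values of 9.93, 9.72, 10.03, 10.26, 10.68 and 10.74 at 0, 6, 12, 15, 18 and 24 h. As with Sparc and Lum, the 6 h array was the lowest, and the values went up at each later time. The 24 h array was 1.76-fold above 0 h and 2.03-fold above 6 h. A second Bgn probe set, 162347_f_at, moved less, with 9.02, 8.78, 8.75, 8.95, 8.97 and 9.39 at 0, 6, 12, 15, 18 and 24 h, and its 24 h array was 1.53-fold above 6 h. The array maker's suffix _f marks probe sets whose probes can also match related sequences.

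Dcn (decorin), the closest relative of biglycan and likewise a binder of collagen and TGF-beta, took the other direction and moved little. Its log2 values (93534_at) were 12.62, 12.60, 12.41, 12.22, 12.31 and 12.29 at 0, 6, 12, 15, 18 and 24 h. The first 2 arrays were the highest and the 15 h array the lowest, which was 1.32-fold below 0 h. The 24 h array was 0.32 (log2) below the 6 h array, while Lum and Bgn 96049_at were 1.43 and 1.02 above it.

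Fbln1 (fibulin 1) is a calcium-binding glycoprotein of basement membranes and elastic fibres that binds fibronectin. It has 4 probe sets, and the 3 brighter ones were highest at 0 h. Probe set 94309_g_at had log2 values of 11.03 at 0 h and 10.49, 10.42, 10.41, 10.44 and 10.37 at the later times, a step down between 0 and 6 h with a flat course after it. The 5 progesterone arrays averaged 10.43 ± 0.05 (SD over 5 times), and their differences from 0 h lay between -0.66 and -0.54. Probe set 94307_at went from 10.11 to between 9.22 and 9.52, and 94308_at from 9.88 to between 9.51 and 9.71. The fourth, 161628_r_at, lay at 6.64 at 0 h and between 6.61 and 7.04 afterwards, next to the floor, so it measures the gene poorly.

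Fbln2 (fibulin 2), which joins elastic fibres and basement membranes, was also highest at 0 h. Its log2 values (100928_at) were 9.09 at 0 h and 8.59, 8.63, 8.57, 8.65 and 8.75 at the later times. All 5 progesterone arrays were below the uninjected one, with differences between -0.52 and -0.34, and they differed among themselves by less than that.

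Fn1 (fibronectin), the adhesive glycoprotein on which cells lay down other matrix proteins, had log2 values (92852_at) of 10.60, 10.22, 10.28, 10.09, 10.52 and 10.67 at 0, 6, 12, 15, 18 and 24 h. The 3 arrays from 6 to 15 h were below the uninjected one, with differences between -0.52 and -0.32, and the 2 later ones differed from it by -0.08 and 0.07. The 15 h array, not the 6 h array, was the lowest, 1.43-fold below 0 h.

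**Figure D2:**
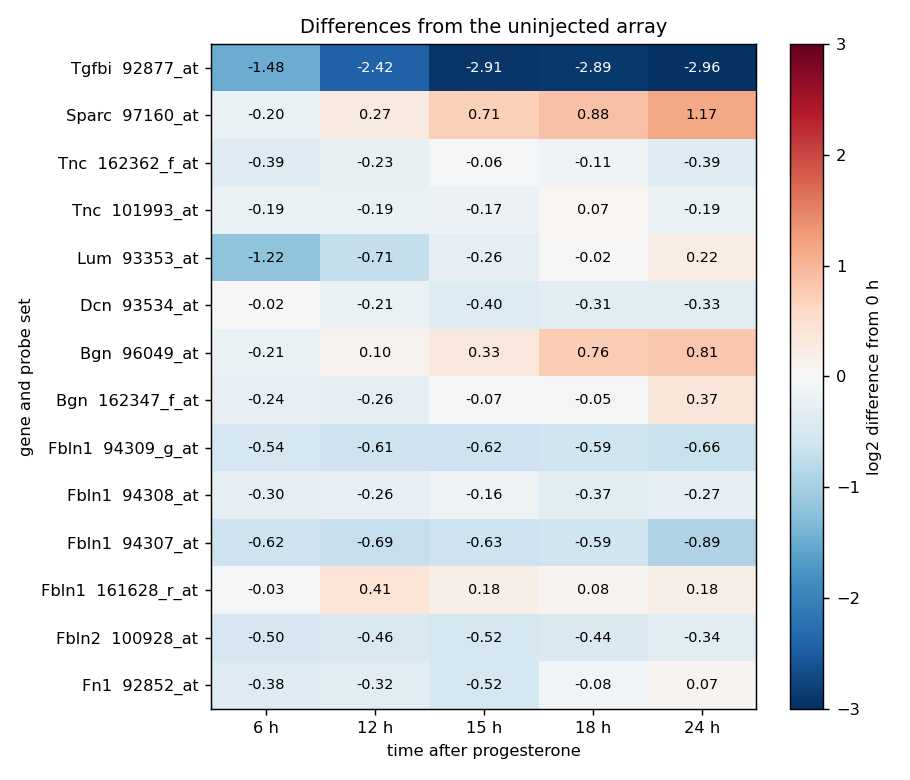
Log2 difference of each progesterone array (columns, 6 to 24 h) from the single 0 h array for the 14 analysed member probe sets (rows), with blue for lower and red for higher than 0 h and the value printed in each cell; values below the floor were set to it first. The Tgfbi row is the darkest, down to -2.96, Sparc reaches 1.17 at 24 h, and every cell of the 6 h column is below 0.

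Counted at 2-fold against 0 h, 2 of the 14 probe sets were lower at 6 h, Tgfbi and Lum, where 1.1% of all probe sets were. At 12, 15, 18 and 24 h only Tgfbi was, against backgrounds of 1.75%, 1.58%, 1.8% and 1.39%. None was 2-fold higher before 24 h, when Sparc was, and the backgrounds for higher values were 1.41%, 1.83%, 2.05%, 1.14% and 1.06% in order of time. From the 6 h to the 24 h array, Lum, Sparc and Bgn (3 probe sets) differed upwards by 2-fold or more, against 0.935% of all probe sets, and Tgfbi was 2-fold lower, against 0.909%. Bgn is at the edge of that rule, and with quantile normalization or scaling to a common trimmed mean its log2 difference was 0.90 or 0.95, below 2-fold. The members were chosen with earlier results of these data known, and the comparison of 24 h with 6 h was added after the values were seen. Here and in the fits below, the shares of all probe sets stand beside the member counts as a description, and an excess over them is not a test.

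Taken without regard to size, all 14 probe sets were lower at 6 h than at 0 h, where 58.2% of all analysed probe sets were. This count depends on how the arrays are scaled and was 13 with quantile normalization and 12 with a common trimmed mean. The median log2 difference of the members was -0.34, -0.26, -0.22, -0.09 and -0.23 at 6, 12, 15, 18 and 24 h, beside medians of all probe sets between -0.05 and 0.03. The number of members below 0 h was 11, 11, 10 and 8 at the 4 later times. By 24 h the members had spread out on both sides of 0 h, from -2.96 for Tgfbi to 1.17 for Sparc.

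To set the differences against a spread, limma was fitted to all analysed probe sets in 3 ways. The first set the 5 arrays after injection against the uninjected one. The spread then comes from the progesterone arrays, which are different times, and the lone 0 h array is assumed to vary as they do. An exact permutation test of 1 array against 5 cannot go below p = 0.167. In this fit 2 of the 14 probe sets fell and none rose, where 1.8% of all probe sets fell and 0.893% rose. An unadjusted p under 0.05 was reached by 4 of the 14, against 19% of all probe sets. Tgfbi fell by 2.53 on the log2 scale (SE 0.50, adjusted p = 0.042, lower on 5 of 5 arrays), and Fbln1 94309_g_at fell by 0.60 (SE 0.11, adjusted p = 0.031, lower on 5 of 5 arrays).

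The other fibulin probe sets missed the threshold in that limma fit. Fbln1 94307_at differed by -0.69 ± 0.15 (SE) with an adjusted p of 0.053, Fbln1 94308_at by -0.27 ± 0.12 with 0.28, and Fbln2 by -0.45 ± 0.13 with 0.11. Each was lower on all 5 progesterone arrays. The Tgfbi call passed in 4 of 8 other processing settings and was lost with a floor at the 60th percentile (adjusted p = 0.144), without the filter on low values (0.194) and, narrowly, with quantile (0.051) or trimmed-mean scaling (0.0505), whereas Fbln1 94309_g_at passed in 8 of 8. Of the 8 settings, 2 gave the same fit, the floor at the 20th percentile and no floor, and both calls passed in it. Both calls also depended on single arrays. Without the 12, 15, 18 or 24 h array neither Tgfbi nor Fbln1 94309_g_at passed, with adjusted p up to 0.138 and 0.108, and without the 6 h array both passed. The Tgfbi difference itself stayed between -2.79 and -2.42 over these omissions, and that of Fbln1 94309_g_at between -0.62 and -0.59.

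The second fit took hours as a number over all 6 arrays. No member passed, where 0.194% of all probe sets rose and 0.116% fell, and 6 of the 14 had an unadjusted p under 0.05, against 16.2% of all. The slope of Tgfbi was -3.03 ± 0.47 (log2 per 24 h, SE, adjusted p = 0.062) and that of Sparc 1.39 ± 0.23 (adjusted p = 0.067). Bgn 96049_at followed at 1.02 ± 0.23 (adjusted p = 0.10) and Dcn at -0.41 ± 0.13 (adjusted p = 0.18). Over 8 other settings Tgfbi passed in 3, with adjusted p from 0.041 to 0.302, and Sparc in 2, with 0.048 to 0.292. The 2 passes of Sparc, and 2 of those of Tgfbi, are 1 and the same fit, with the floor at the 20th percentile or none. With 1 array left out each passed in 1 of 6 fits, with adjusted p up to 0.243, and the Tgfbi slope was -1.96 without the 0 h array.

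The third fit kept the slope but left the 0 h array out, so that it describes only the course from 6 to 24 h after injection. It was read as a result of its own after the values had been seen. In it 3 of the 14 probe sets rose and none fell, where 1.02% of all probe sets rose and 0.88% fell, and 6 of the 14 had an unadjusted p under 0.05, against 21.4% of all. Lum rose by 1.997 ± 0.23 (log2 per 24 h, SE, adjusted p = 0.016), Sparc by 1.88 ± 0.22 (adjusted p = 0.016) and Bgn 96049_at by 1.49 ± 0.23 (adjusted p = 0.030). The second Bgn probe set had a slope of 0.82 ± 0.23 (adjusted p = 0.097), Fn1 one of 0.63 ± 0.26 (adjusted p = 0.20), and Tgfbi one of -1.96 ± 0.42 (adjusted p = 0.061).

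With 1 of the 5 arrays left out, Lum and Sparc passed without the 15 h array and without the 24 h array, and Bgn passed in no such fit. Their slopes held their size, at 1.75 to 2.46 for Lum, 1.68 to 2.25 for Sparc and 1.37 to 1.84 for Bgn, while their adjusted p ran up to 0.333. Without the filter on low values no member passed (adjusted p of 0.219, 0.219 and 0.225 for Lum, Sparc and Bgn), and with a floor at the 60th percentile none did either (0.167, 0.167 and 0.195). The slopes of these 3 kept their size, and the calls depended on single arrays. Other slopes moved more, with -0.90 for Tgfbi without the 6 h array and -3.01 without the 24 h array, and 1.23 and 0.43 for Bgn 162347_f_at in the same fits.

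**Figure D3:**
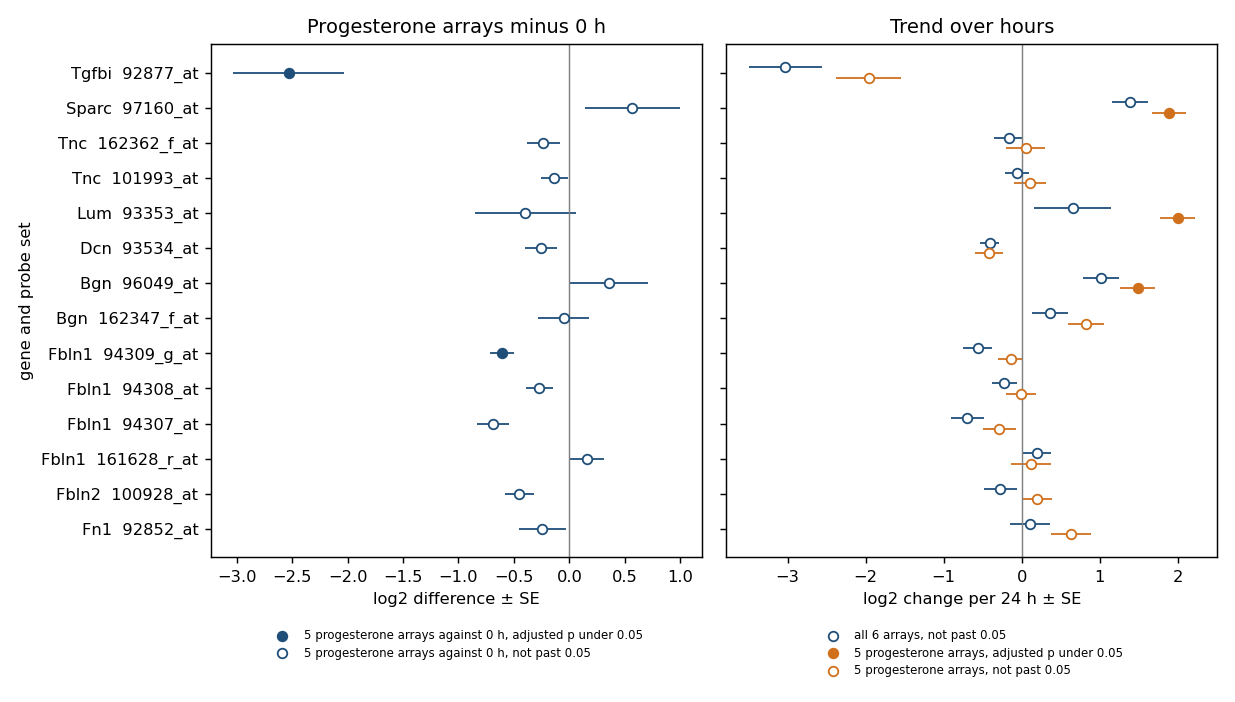
Limma estimates with their standard errors for the 14 analysed member probe sets, on the left the log2 difference of the 5 progesterone arrays from 0 h and on the right the slope as log2 change per 24 h, in blue over all 6 arrays and in orange over the 5 progesterone arrays; filled points have an adjusted p under 0.05. Filled on the left are Tgfbi (-2.53) and Fbln1 94309_g_at (-0.60), and on the right, in orange, Sparc (1.88), Lum (1.997) and Bgn 96049_at (1.49).

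For the 4 member probe sets with a range of at least 1 (log2) over the arrays, the probe sets of other genes with the most similar course were found among 410 with as large a range. These are Pearson correlations over 6 arrays, given as a description, and all courses share the same arrays. Nearest to Tgfbi were Ddit3 (r = 0.991), Prnp (r = 0.991) and Bcl6 (r = 0.989), each highest at 0 h and lower at every later time. Nearest to Sparc were Col1a2 (r = 0.994), Mdk (r = 0.981) and Mfap2 (r = 0.976), and nearest to Bgn were Col14a1 (r = 0.989), Col1a2 (r = 0.986) and Mdk (r = 0.972). Nearest to Lum were Tmem176a (r = 0.993), Septin10 (r = 0.984) and Ptgr1 (r = 0.983), which share its dip at 6 h. Col1a2, a chain of type I collagen, had log2 values of 10.07, 9.85, 10.45, 10.86, 11.27 and 11.44 from 0 to 24 h, with its lowest value at 6 h as in Sparc and Bgn.

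**Figure D4:**
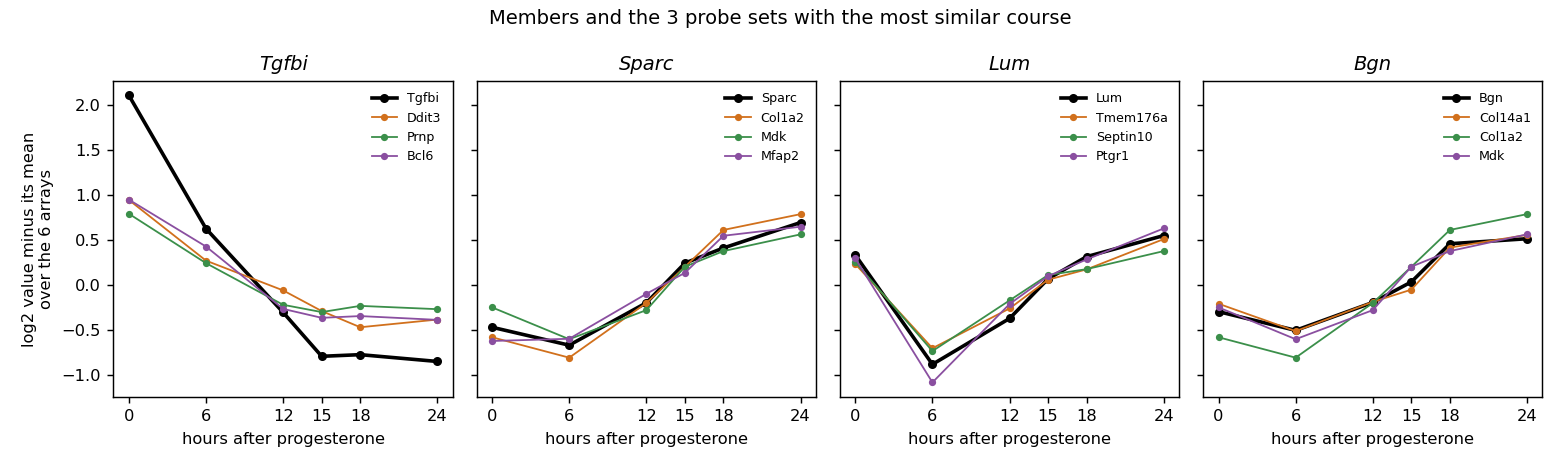
Courses of Tgfbi, Sparc, Lum and Bgn 96049_at (black) and of the 3 probe sets most like each (colours) against hours after progesterone, as the log2 value minus the probe set's mean over the 6 arrays, 1 point per array. Tgfbi and its neighbours start high and level off, Sparc and Bgn run with Col1a2, and Lum and its neighbours share a low point at 6 h.

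The matrix genes around the members were counted next, from lists set up for this tissue with earlier results of these data known. Counts from these lists are therefore a description and not an independent test. Of all probe sets, 0.893% rose and 1.8% fell against 0 h. In the slope over all 6 arrays 0.194% rose and 0.116% fell, and from 6 to 24 h 1.02% rose and 0.88% fell. The collagen list holds chains of the fibril-forming types I, III and V, of type VI, which forms beaded filaments, and of fibril-associated types. Of its 9 analysed chains, 5 rose in the slope over all 6 arrays and 6 rose from 6 to 24 h, and none fell. Their median log2 difference from 0 h was 0.19, 0.83, 0.85, 1.195 and 1.23 at 6, 12, 15, 18 and 24 h. Col1a1, the other chain of type I collagen, was 10.06 at 0 h, 10.57 at 6 h and 11.85 at 24 h (log2), a slope over all arrays of 1.88 ± 0.18 per 24 h (SE, adjusted p = 0.019). The type VI chains Col6a2 and Col6a3 rose over all arrays by 1.799 ± 0.23 (adjusted p = 0.046) and 1.66 ± 0.19 (adjusted p = 0.032). Col5a2, a chain of the collagen that starts fibrils, rose by 2.05 ± 0.26 (adjusted p = 0.046) with no value at 24 h, so its fit used 5 arrays. Unlike Sparc, Lum and Bgn, these 4 chains were already above 0 h on the 6 h array, by 0.19 to 0.77. The fifth that rose over all arrays was Col3a1 of type III, named because it completes the count. With 1 of the 6 arrays left out, Col1a1, Col5a2, Col6a2 and Col6a3 each passed in 2 of 6 fits and Col3a1 in 1, with adjusted p up to 0.25. For Col5a2, 1 of the 2 passes was without the 24 h array, an omission that removes none of its values.

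Col1a2 and Col14a1, a collagen on the surface of fibrils, were singled out after their values were seen, as neighbours of Sparc and Bgn. They rose from 6 to 24 h by 2.24 ± 0.25 (log2 per 24 h, SE, adjusted p = 0.016) and 1.53 ± 0.23 (adjusted p = 0.030). As for the members, the calls from 6 to 24 h depended on single arrays. Over the 5 omissions Col1a2 passed in 2 fits, Col5a2 in 1, and Col1a1, Col6a2, Col6a3 and Col14a1 in none, with adjusted p up to 0.333. The pass of Col5a2 was without the 24 h array, where it has no value. Its slope covers only 6 to 18 h, and it passed with none of those arrays left out.

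Among 10 other analysed matricellular genes, 1 fell against 0 h and none rose, and their median differences from 0 h stayed between -0.07 and 0.09. The one that fell was Ccn2 (connective tissue growth factor), a matrix-bound protein that, like Tgfbi, is induced by TGF-beta. Its log2 values were 9.70 at 0 h and 8.71, 8.47, 8.27, 8.58 and 8.68 later, a difference of -1.16 ± 0.18 (SE, adjusted p = 0.023). It passed in 2 of the 5 fits that leave out a progesterone array. Postn (periostin), the closest relative of Tgfbi, went the other way, with 9.28, 9.24, 9.34, 9.59, 9.80 and 10.19 from 0 to 24 h. It rose from 6 to 24 h by 1.33 ± 0.21 (log2 per 24 h, SE, adjusted p = 0.030), passed in none of the 5 fits that leave out an array, and was picked out after its values were seen.

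Of the other small leucine-rich proteoglycans, 3 of 10 listed were analysed, Fmod, Ogn and Chad, and none passed in any of the 3 fits. Fmod (fibromodulin), which like lumican carries keratan sulfate, had log2 values of 7.13, 6.71, 7.34, 7.74, 7.57 and 7.76 at 0, 6, 12, 15, 18 and 24 h, with a slope from 6 to 24 h of 1.35 ± 0.32 (adjusted p = 0.073).

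The list of other fibulins, elastic fibre and basement membrane glycoproteins left 9 analysed genes, none of them a fibulin. They were Eln, Mfap2, Mfap4, Mfap5, Ltbp1, Ltbp3, Mgp, Vtn and Vcan. Among these 9, 1 rose in each slope fit and none fell. It was Mfap2 (in 1 of 6 omissions over all arrays and in none of 5 from 6 to 24 h), a small microfibril protein, at 8.22 on the 0 h array, 8.24 at 6 h and 9.49 at 24 h, with a slope over all arrays of 1.47 ± 0.20 (SE, adjusted p = 0.046). Vcan (versican), a large proteoglycan of loose matrix, was lowest at 6 h, as Lum was, but already above its 0 h level at 12 h, with 7.49, 6.74, 8.27, 8.62, 8.996 and 8.88 at 0, 6, 12, 15, 18 and 24 h. Its slope from 6 to 24 h was 2.86 ± 0.59 (SE, adjusted p = 0.057).

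Among 12 analysed surface receptors for the members, 1 fell against 0 h and 1 rose from 6 to 24 h. Sdc4, a heparan sulfate proteoglycan that binds fibronectin together with integrins, fell by 0.73 on the log2 scale (SE 0.12, adjusted p = 0.026) and passed in 2 of the 5 omissions. Cd44, best known as a hyaluronan receptor, had log2 values of 7.49, 6.86 and 8.13 at 0, 6 and 24 h and rose by 1.76 ± 0.33 per 24 h (SE, adjusted p = 0.044), again as a gene chosen after its values were seen. It passed in 1 of the 5 omissions, its slope was 1.09 without the 6 h array, and with a floor at the 60th percentile it was 0.71 (adjusted p = 0.368). Itgb5, the beta chain of a vitronectin receptor, was lower by 0.90 ± 0.25 without passing (adjusted p = 0.099).

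Of 12 analysed TGF-beta ligands, receptors and Smads, 1 rose and 1 fell against 0 h. Tgfbr3, the coreceptor betaglycan, was at the floor at 0 h and between 7.12 and 7.35 afterwards. It rose by 0.68 ± 0.12 (SE, adjusted p = 0.035) in a fit that takes the 0 h value at the floor, and it passed in 1 of the 5 fits that leave out a progesterone array and not without the filter on low values (adjusted p = 0.054). Tgif1, a repressor that binds Smads, had log2 values of 9.13, 7.40 and 8.07 at 0, 6 and 24 h and fell by 1.41 on the log2 scale (SE 0.23, adjusted p = 0.027). It passed in 2 of the 5 omissions and not without the filter (adjusted p = 0.109). No gene among 11 analysed matrix proteases and inhibitors passed in any of the 3 fits, and their median difference from 0 h lay between -0.22 and -0.09.

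Markers of the uterine cell types moved over the same hours. The summed linear level of 12 epithelial markers was 13300 at 0 h and between 9381 and 11473 after progesterone, and 3 of the 12 fell against 0 h, Krt18, Epcam and the estrogen-responsive Ltf, and Krt7 fell in the slope over all arrays. With 1 array left out, Krt18 and Ltf each passed in 1 of 5 fits and Krt7 in 1 of 6, whereas Epcam passed in 5 of 5. Over 8 other settings, 2 of which gave the same fit, Krt18 passed in 7, Ltf in 6, Krt7 in 4 and Epcam in 8. The epithelial list did not move as one, since Cldn3 was above 0 h on all 5 progesterone arrays, by 0.26 to 0.56. The sum of 9 stromal markers was 6439 at 0 h and 7984 to 8777 later, with 1 gene, Mme, that rose. This list did not move as one either. On all 5 progesterone arrays 5 of the 9 were above 0 h, and 1, Thy1, was below it, with differences from -0.82 to -0.28. Pdgfra stayed between -0.07 and 0.13. At 6 h the differences of Hoxa11, Mme and Hoxa10 were 1.28, 0.95 and 0.83. The sum of 9 endothelial markers was 4764 at 0 h and 3618 to 4107 later, but its lower level lies largely in Cldn5, the 1 that fell, and the median difference of the 9 ran from -0.22 at 6 h to 0.04 at 24 h. The sum of 9 macrophage markers was 4766 at 0 h and 4062 to 4671 later (none passed). That of 3 adipose markers was 1867 and 908 to 1296 (none of 4 passed), with the fat cell hormone Adipoq at -1.03, -0.96, -2.53, -1.72 and -2.19 from 0 h in order of time (adjusted p = 0.149 against 0 h). Tgfbi and the fibulins were highest on the same 0 h array that holds the highest epithelial, endothelial, macrophage and adipose sums, and the part of these shifts in their decrease was not tested.

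From 6 to 24 h, where Sparc, Lum and Bgn rose, the stromal sum was 8595 at 6 h and 8777 at 24 h. This nearly level sum holds moves in both directions. Hoxa11, Hoxa10, Hand2 and Wt1 had log2 differences from 6 to 24 h of -0.43, -0.22, -0.03 and -0.03. Those of Mme, Des, Thy1, Pdgfra and Nr2f2 were 0.40, 0.39, 0.34, 0.18 and 0.14. The median of the 9 was 0.14, and the part of the stroma in the slopes of the members was not tested. The sum of 6 smooth muscle markers went from 15540 at 6 h to 22098 at 18 h and 21023 at 24 h over the same interval, with none of 7 past the threshold in any fit, and its part in the slopes of the members was not tested. The sum of 8 chains of the collagen list went from 9172 to 17987. No analysed marker of these lists was at the floor on all arrays.

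**Figure D5:**
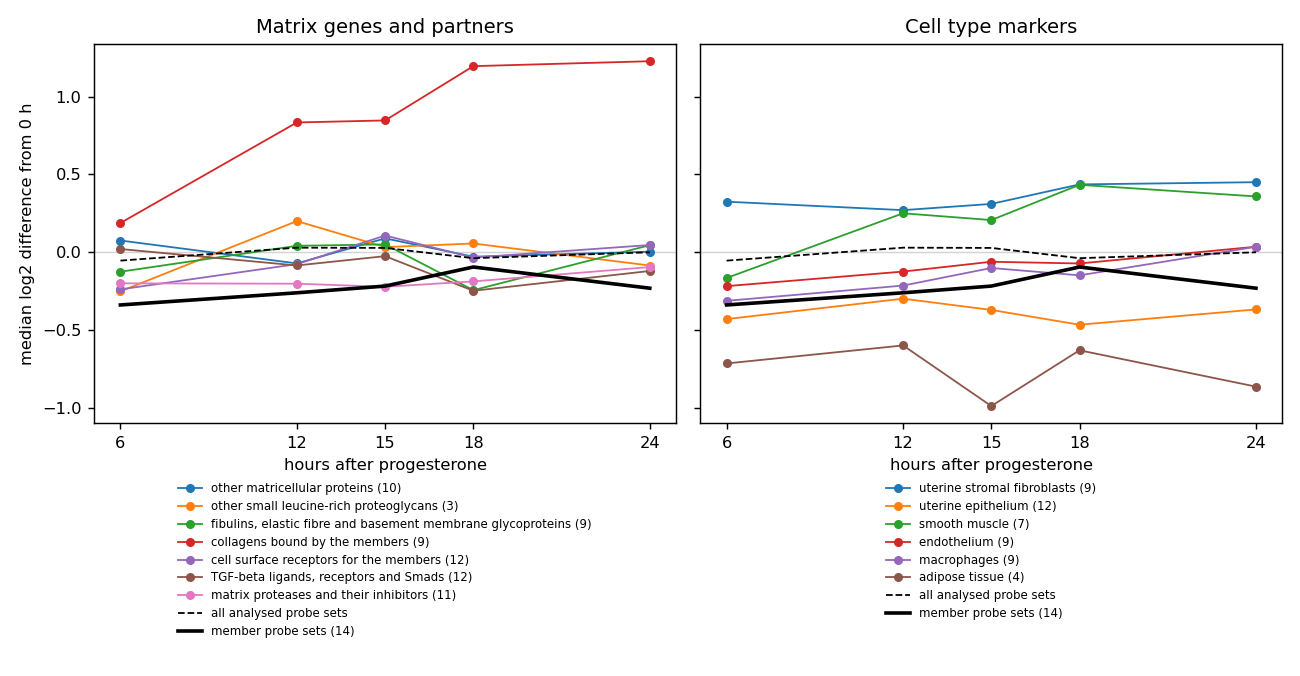
Median log2 difference from 0 h (vertical axis) at each time after progesterone (horizontal axis) for lists of matrix genes and their partners (left) and for cell type markers (right), with the number of analysed genes in brackets; the solid black line is the median of the 14 member probe sets and the dashed line that of all analysed probe sets. The collagens reach 1.23 at 24 h while the members' median stays between -0.34 and -0.09.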

How the data were processed

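The authors deposited log2 expression values for the probe sets of 6 Affymetrix arrays, with RNA preparation and hybridization following the array maker's recommendations, per the labels' protocols. The log base was read from the values (2 raised to them gives 4-decimal numbers in 99.8% of cases, against 6.42% for the natural base). Software and normalization: not given in the sources used here. Values were used as deposited; the arrays' trimmed means lay within -4.10% to 3.42% of their median. Of 12487 probe sets, 65 controls were left out, and 121 missing values stayed missing. Values below the 40th percentile (6.60) were set to it, and 7731 probe sets above it on at least 2 arrays were analysed; a shared lower limit of 5.39 holds 21.1% to 22.5% of values per array. Gene names came from the platform annotation.

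limma 3.58.1 in R 4.3.3 (lmFit, eBayes with an intensity trend) fitted the 5 progesterone arrays against 0 h and a slope over hours. Residual degrees of freedom were 4 over all 6 arrays, and fewer in the slope over the 5 progesterone arrays, with an array left out or with missing values. Benjamini-Hochberg adjustment was over all probe sets tested, and a gene is said to have risen or fallen at an adjusted p below 0.05. P-values measure the spread between times, not between mice. The script was tested on simulated data. The slope over the 5 progesterone arrays and the difference between 24 and 6 h were added after the values were seen. Every member probe set is described. Of each list, at most 4 genes that passed or were 2-fold from 0 h at 2 or more times are named, others only where stated. The members and lists were chosen with earlier results of these data known. Alternatives were other floors, no filter, above the floor on all 6 arrays, quantile or trimmed-mean scaling, eBayes without a trend, and leaving out each array. The 20th percentile is the lower limit of the values, so a floor there and no floor gave the same fits, though counted as 2 settings.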

Additional observations from a re-analysis of the deposited data

How the results depend on the processing

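No paired analysis was possible because each time has 1 array. Against 0 h, 208 probe sets passed in all and 2 members; with a floor at the 60th percentile 326 passed, and the member count was 1 there (Tgfbi was lost), without the filter, with quantile normalization and with a common trimmed mean. Leaving out a progesterone array gave 43 to 590 calls and 0 to 3 members; the lowest count came without the 12 h array and the highest without the 6 h array. Over all 6 arrays the slope gave 24 calls, against 53 with the floor at the 20th percentile or none, 0 with the floor at the 60th percentile or no filter, 10 with quantile and 12 with trimmed-mean scaling, and 0 to 147 with an array left out; its member count of 0 became 2 with the lower floor or none and 1 with probe sets above the floor on all 6 arrays, and ran from 0 to 3 with an array left out. From 6 to 24 h, 147 passed, against 285 with the lower floor or none, 1 with the higher floor, 0 without the filter, 252 above the floor on all arrays, and 251 (123 up, 128 down) with quantile scaling, and 0 to 36 with an array left out; the 3 members became 4 with the lower floor, none or all arrays above it, 0 with the higher floor or no filter, and 0 to 2 with an array left out. At 1.5-fold in place of 2-fold, 21 member differences from 0 h counted in place of 7. The 4 members at 2-fold between 6 and 24 h became 3 with quantile or trimmed-mean scaling. The cause of these changes was not tested.

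Signs turned only for estimates that, in the fit concerned, passed under no setting. With 1 array left out, Bgn 162347_f_at against 0 h ran from -0.1547 to 0.0047. In the slope over all arrays, Tnc 162362_f_at ran from -0.3092 to 0.0497, Tnc 101993_at from -0.153 to 0.1045, Fbln2 from -0.5372 to 0.1971, Bgn 162347_f_at from -0.0192 to 0.8237 and Fn1 from -0.2422 to 0.6336. From 6 to 24 h, Tnc 162362_f_at ran from -0.4125 to 0.6396, Fbln1 161628_r_at from -0.3873 to 0.2593, Fbln1 94308_at from -0.1121 to 0.0429 and Fbln1 94307_at from -0.443 to 0.0679, and Tnc 162362_f_at was -0.0042 with the lower floor or none. With the higher floor, Tnc and Fbln1 161628_r_at gave no value. Low signal limits Tnc and that Fbln1 probe set.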
